A study of Mus musculus with 4 samples.

Results

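Notch signalling was followed through 10 genes in single-cell RNA libraries of mouse ovaries. The genes were chosen by symbol as the pathway's receptors (Notch1, Notch2, Notch3), ligands (Jag1, Jag2, Dll4) and target genes (Hes1, Hey1, Hey2, Heyl), and all 10 were present among the 32285 genes of the count tables. The mice were prepubertal (postnatal day 25) and fell into 4 groups: a control group given PBS and saline, a doxorubicin group (3 mg/kg), a group given the same doxorubicin dose and 0.75 mg/kg of AMH, and a group given that dose of AMH alone. AMH, anti-Müllerian hormone, is made by granulosa cells of growing follicles, and the human recombinant protein was used. Doxorubicin, an anthracycline that damages DNA, was dosed weekly for 2 doses, and ovaries were collected 4 h after the second. Each group was 1 library made from single ovaries of 5 animals that were pooled, so the files hold no spread between animals, and every difference given here is a difference between libraries, not a tested effect of treatment. The strain and the route of dosing are not given in the sources used here.

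Notch receptors are membrane proteins that are cut when they bind a ligand on a neighbouring cell. The released intracellular part joins the DNA-binding protein RBPJ and switches on repressor genes of the Hes and Hey families. In vessels, Dll4 on endothelial cells and Jag1 act on Notch1 and on Notch3, the receptor of mural cells (the pericytes and smooth muscle of the vessel wall), and in the ovary the pathway is known from follicle formation and granulosa cell growth.

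On the mouse assembly GRCm38 (mm10) with the GENCODE M21 annotation, Notch3 lies on the minus strand at chr17:32120820-32166852 and Notch1 on the minus strand at chr2:26457903-26516663. Notch2 lies on the plus strand at chr3:98013527-98150361. Among the ligands, Jag1 is at chr2:137081456-137116644 (minus), Jag2 at chr12:112907819-112929776 (minus) and Dll4 at chr2:119325784-119335962 (plus). Among the targets, Hes1 is at chr16:30064384-30067796 (plus), Hey1 at chr3:8663359-8667256 (minus), Hey2 at chr10:30832359-30842801 (minus) and Heyl at chr4:123233556-123249875 (plus). Antisense genes overlap Notch1 (0610009E02Rik and Gm13568), Notch3 (Gm17276) and Dll4 (Gm14207). Whether the counting used strand is not given in the sources used here, so reads of these overlapping pairs may not be told apart.

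RefSeq promoters (GRCm38.p6) matched 7 of the 10 genes, all except Hes1, Hey1 and Heyl. The letters GTGGGAA, a core of the RBPJ binding motif, were searched on both strands in the 250 bases before each start. They occurred in 1 of the 7 promoters, that of Hey2, and in 1779 of all 32851 promoters in the table (5.42%). The Hey2 promoter (chr10:30842784-30843033, minus strand) is shown for this match, which begins at position -207 from the start and reads as the reverse complement, in capitals. The Notch3 promoter (chr17:32166891-32167140, minus strand), which holds no match, is shown for comparison, since Notch3 was highest in pericyte-like cells, as was Hey2.
Hey2: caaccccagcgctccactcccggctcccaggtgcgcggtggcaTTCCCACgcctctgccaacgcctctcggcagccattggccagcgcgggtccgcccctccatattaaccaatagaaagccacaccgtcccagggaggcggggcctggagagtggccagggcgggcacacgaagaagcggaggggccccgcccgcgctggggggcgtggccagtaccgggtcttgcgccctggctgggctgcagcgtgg
Notch3: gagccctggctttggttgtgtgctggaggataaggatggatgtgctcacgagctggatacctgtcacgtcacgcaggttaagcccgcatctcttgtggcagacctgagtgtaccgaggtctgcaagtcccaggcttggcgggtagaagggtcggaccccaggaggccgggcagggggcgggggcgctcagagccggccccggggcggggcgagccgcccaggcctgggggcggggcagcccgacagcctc
A second Hey2 match begins at position -4 and runs across the start, so only its first letters are in the printed stretch. With the bases after the start included, 2097 of the 32851 promoters (6.38%) held a match. A match is a string of letters and was not tested as a binding site.

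The libraries held 7141 to 9478 deposited cells and 138647495 to 178279122 UMIs (molecular tags that count each captured transcript once), and 28440 of the 33639 cells were kept. Pairs of libraries shared 11 to 24 cell barcodes, at most 0.281% of the smaller library. Clustering gave 33 clusters, of which 30 were named in 12 classes by marker genes and 3 were left unnamed, and 7 classes had at least 50 cells in every library. Levels are given as CPM, the UMIs of a gene per 1000000 UMIs summed over a class in a library, with exact 95% Poisson intervals that cover counting error only. Values follow the order control, doxorubicin, doxorubicin+AMH, AMH unless stated. Because 3′ ends were counted, a level is compared between classes and libraries for the same gene, not between genes.

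Notch3 was highest in pericyte-like cells. There (111, 81, 65 and 77 cells) it was at 676 CPM (interval 628 to 726), 600 CPM (551 to 652), 545 CPM (487 to 609) and 477 CPM (428 to 531). Blood endothelial-like cells came next, at 53, 51.0, 90.1 and 71.6 CPM, and the pericyte range did not overlap theirs. All other classes lay at or below 24.8 CPM in every library. Both AMH libraries had the lowest pericyte levels of Notch3. In the same cells they were also lowest for the summed pericyte markers (4212, 4480, 3441 and 2509 CPM) and smooth muscle markers (7836, 7552, 5286 and 5434 CPM), and highest for the summed granulosa markers (336, 311, 931 and 669 CPM) and the summed stress genes, immediate-early and heat-shock genes that tissue dissociation can switch on (12839, 12770, 14439 and 15883 CPM). The part of these in the Notch3 values was not tested.

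**Figure D1:**
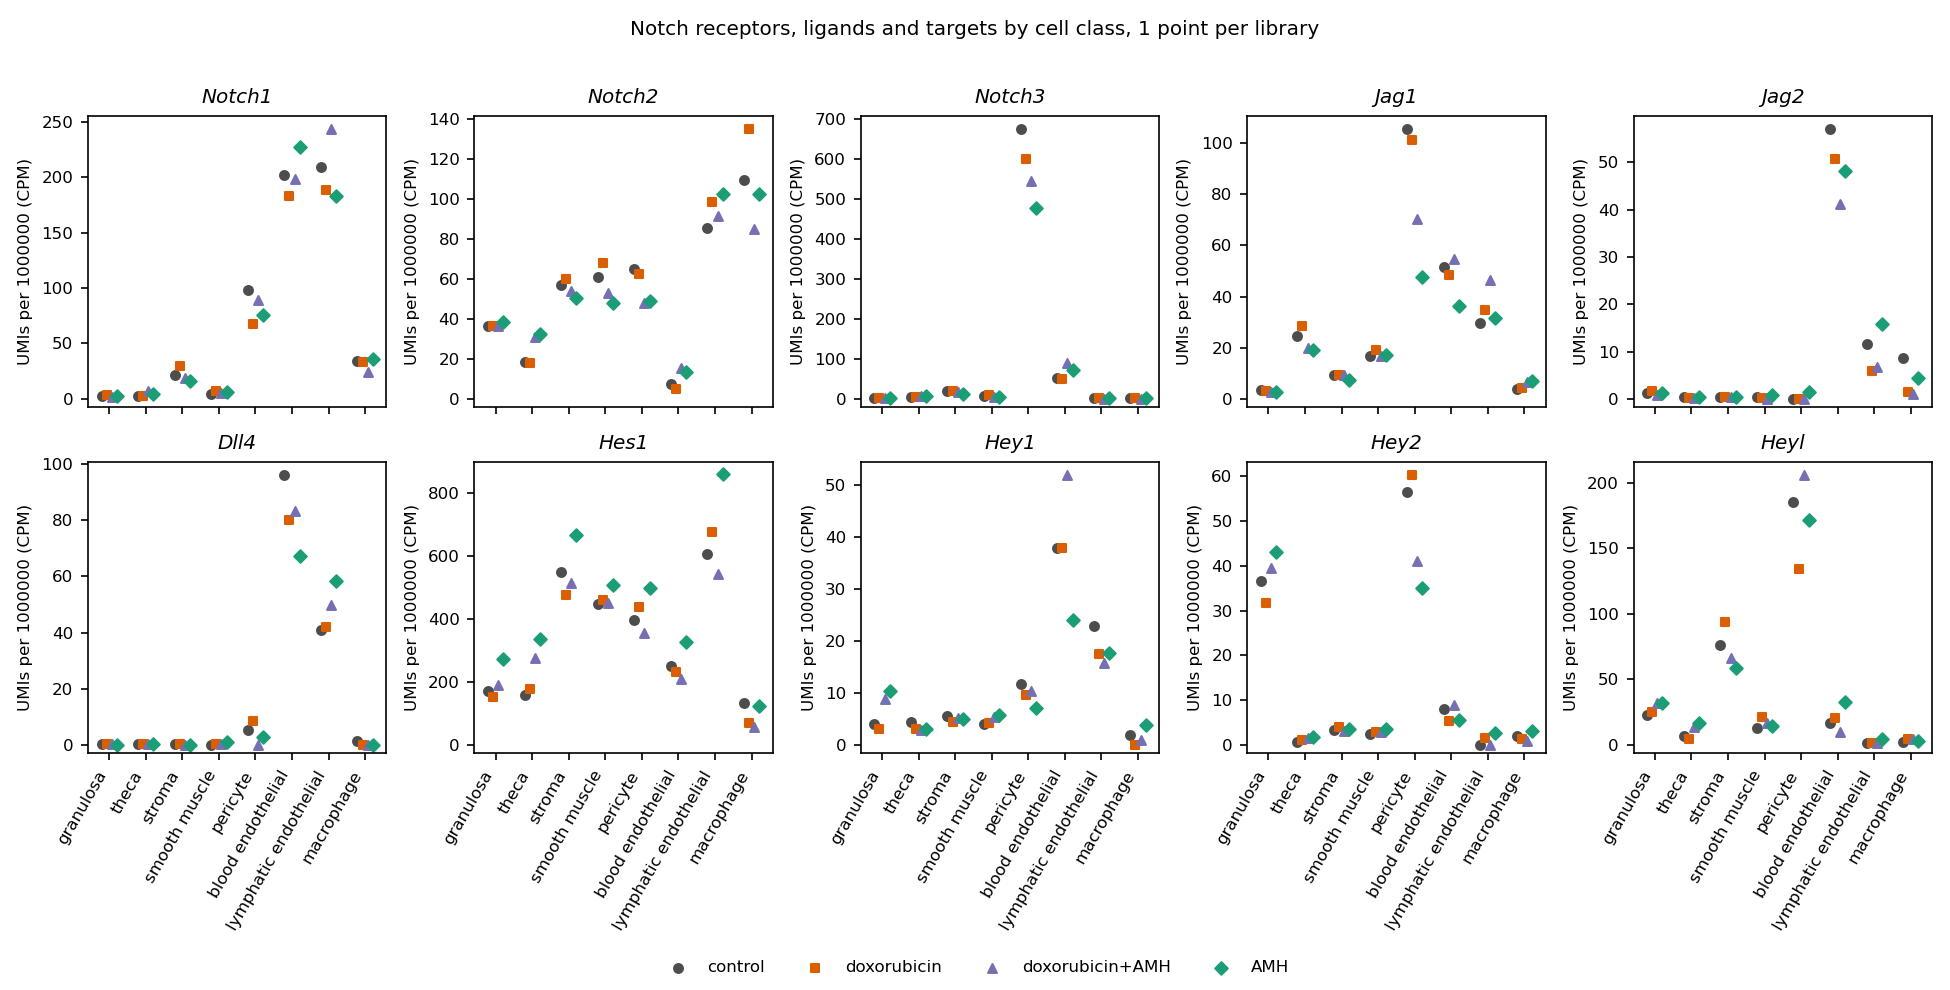
Levels of the 10 Notch genes (vertical axes, UMIs per 1000000) in 8 cell classes (horizontal axes), with 1 point per library and no error bars. Notch3 and Heyl were highest in pericyte-like cells, Dll4 and Jag2 in blood endothelial-like cells, and Hes1 was found in every class shown.

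Notch1, the receptor known from endothelial cells, was highest in both endothelial classes. It was at 202, 183, 199 and 228 CPM in blood endothelial-like cells and at 209, 189, 243 and 183 CPM in lymphatic endothelial-like cells, and these ranges overlapped. Pericyte-like cells followed at 98.4, 67.7, 89.2 and 75.8 CPM, below every endothelial value. Stroma-like cells held 21.5, 29.7, 19.1 and 16.1 CPM, and granulosa-like cells only 1.63 to 3.38 CPM.

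Notch2, the receptor known from granulosa cells, was detected across classes. Its granulosa level was nearly the same in the 4 libraries, at 36.8 CPM (35.3 to 38.3), 36.6 CPM (35.1 to 38.1), 36.7 CPM (35.2 to 38.2) and 38.7 CPM (37.3 to 40.1). Macrophage-like cells had the highest median, with 109, 135, 85.0 and 103 CPM, a range that overlapped that of lymphatic endothelial-like cells (85.6 to 102 CPM). Smooth muscle-like cells held 48.2 to 68.2 CPM and stroma-like cells 50.5 to 59.9 CPM. Blood endothelial-like cells, high for Notch1, had 5.03 to 15.7 CPM.

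Dll4 and Jag2 were ligand transcripts of the blood endothelial-like cells. Dll4, the ligand of endothelial tip cells, was at 96.0, 80.0, 83.2 and 67.1 CPM there and at 40.7, 42.1, 49.8 and 58.3 CPM in lymphatic endothelial-like cells, with no overlap between these classes. It was at or below 8.60 CPM in all other classes. Jag2 was at 57.0, 50.7, 41.1 and 48.2 CPM in blood endothelial-like cells and at most 15.9 CPM in lymphatic endothelial-like cells, again without overlap.

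Jag1, a ligand of endothelial and mural cells, was highest in pericyte-like cells at 106 CPM (87.4 to 126), 101 CPM (81.7 to 124), 70.3 CPM (50.4 to 95.4) and 47.7 CPM (33.0 to 66.7). Both AMH libraries were thus below both others, as for Notch3 in the same cells. These Jag1 levels rest on 118, 94, 41 and 34 UMIs. Blood endothelial-like cells held 51.6, 48.3, 54.8 and 36.2 CPM, a range that overlapped the pericyte range. Theca-like cells, the steroid-making cells around follicles, held 24.5, 28.4, 19.8 and 19.0 CPM, while granulosa-like cells held 2.65 to 3.40 CPM. Oocytes, a known source of Jag1 in follicles, could not be described, since no cluster of the joint clustering met the rule for them.

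Hes1, the most general Notch target and also a gene that other signals switch on, was found in every class with 50 or more cells per library. Its highest levels were those of lymphatic endothelial-like cells (606, 678, 543 and 861 CPM from 78, 40, 43 and 52 cells), which overlapped those of stroma-like cells. It was at 549, 477, 514 and 667 CPM in stroma-like cells and at 449, 460, 453 and 509 CPM in smooth muscle-like cells. The AMH library was the highest of the 4 in 6 of the 7 classes with 50 or more cells per library, macrophage-like cells being the exception. In granulosa-like cells the level was 170 CPM (167 to 173), 154 CPM (150 to 157), 189 CPM (186 to 193) and 275 CPM (271 to 278), so both AMH libraries lay above both others.

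The Hey genes, which encode repressors related to Hes1, differed in the classes where they were highest. Hey1 was highest in blood endothelial-like cells, at 37.9, 37.9, 51.9 and 24.1 CPM from 133, 98, 53 and 60 UMIs, which overlapped oviduct epithelial-like cells (6.81 to 24.5 CPM in 3 libraries). Hey2 had 2 sites: pericyte-like cells at 56.4, 60.2, 41.2 and 35.1 CPM, and granulosa-like cells at 36.5, 31.7, 39.4 and 43.0 CPM, which overlapped. All other classes were at or below 14.1 CPM of Hey2 in every library. Heyl was highest in pericyte-like cells, at 185, 134, 206 and 171 CPM, then in stroma-like cells at 76.0, 93.9, 66.0 and 58.3 CPM, and in granulosa-like cells at 22.8, 25.3, 32.2 and 31.7 CPM. These 3 ranges did not overlap each other, but blood endothelial-like cells (9.79 to 32.6 CPM) overlapped the granulosa range. Cells of the unnamed clusters held 107, 101, 111 and 99.7 CPM of Heyl, most of it in a cluster led by Ooep and Enpep. That cluster also had Hmmr, Top2a and Birc5 among its top genes. It met the marker share for stroma (0.88 of the list), smooth muscle and theca, but not for oocytes.

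Genes with the pattern most like each Notch gene were found by Pearson's r of log2(CPM + 5) over 28 sums (7 classes in 4 libraries), among 10595 genes. The sums share libraries and cell classes, so r is a description. Notch3 was closest to Ndufa4l2 (r = 0.983), one of the markers that named the pericyte class, and it was also close to Sgip1 (r = 0.980). Notch1 was closest to Sh2d3c (r = 0.984), Dll4 to Syt15 (r = 0.990) and Jag2 to Ctla2a (r = 0.990). Of the targets, Hey1 was closest to She (r = 0.948), Hey2 to Uchl1 (r = 0.947), Hes1 to Nbl1 (r = 0.958) and Heyl to Nup54 (r = 0.931). Notch2 was closest to Abca9 (r = 0.927) and Jag1 to Fads3 (r = 0.949).

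Other pathway genes came from a list of 45, all present in the tables. Notch4 was highest in blood endothelial-like cells (22.9 to 49.6 CPM), separate from every other class, and Dll1 (10.4 to 13.7 CPM there) overlapped with lymphatic endothelial-like cells (7.26 to 20.4 CPM). Mfng, a glycosyltransferase that modifies Notch receptors, was highest in blood endothelial-like cells (49.0 to 72.3 CPM). Lfng, of the same family, was highest in macrophage-like cells (28.7 to 56.2 CPM), with T or NK lymphocyte-like cells overlapping, and Rfng was highest in oviduct epithelial-like cells (6.81 to 10.7 CPM in 3 libraries), overlapping stroma-like cells (7.14 to 8.15 CPM). Nrarp, a target that feeds back on the receptors, was highest in pericyte-like cells (77.4 to 107 CPM), separate from the blood endothelial-like cells (20.9 to 39.4 CPM). Rbpj was highest in macrophage-like cells (231 to 512 CPM), which overlapped T or NK lymphocyte-like cells (114 to 262 CPM). Adam10, a protease that cuts the receptor, was highest in lymphatic endothelial-like cells (230 to 291 CPM). Hes5, another target gene, had 4 UMIs over all lymphatic endothelial-like cells, its highest class.

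Differences between libraries were read from 2 pairs of contrasts in which no library is used more than once: doxorubicin / control with doxorubicin+AMH / AMH, and AMH / control with doxorubicin+AMH / doxorubicin. The ratio is log2 of CPM + 5, and a gene was counted where both contrasts of a pair passed 1.5-fold in the same direction. Genes entered with a mean of 20 CPM or more over the 4 libraries. Of the Notch genes, 2 to 8 passed that filter per class.

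Doxorubicin: members past 1.5-fold in both contrasts numbered 0 of 4 in granulosa-like cells, where 0% of all genes did so, 0 of 4 in stroma-like cells (0.0303%), 0 of 3 in theca-like cells (0.0319%), 0 of 2 in smooth muscle-like cells (0.953%), 0 of 7 in pericyte-like cells (1.38%) and 0 of 8 in blood endothelial-like cells (0.305%). Macrophage-like cells had 1 of 3, Hes1, which was lower, where 2.20% of all genes were counted in either direction and 1.34% were lower. Hes1 there was at 132 CPM (114 to 152), 69.1 CPM (51.0 to 91.6), 58.6 CPM (44.9 to 75.1) and 124 CPM (108 to 143). Both doxorubicin libraries were below both others, with log2 ratios of -0.89 (interval -1.31 to -0.46) and -1.03 (-1.41 to -0.64).

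Those macrophage levels came from 198, 48, 62 and 199 UMIs, of which a single AMH cell, with 85971 UMIs in all, gave 67. Without that cell AMH was at 87.3 CPM and the second ratio at -0.54, so Hes1 was no longer counted. Without the cell with the most Hes1 UMIs in each library, the ratios were -1.04 and -0.86, past 1.5-fold. Both alternatives were chosen after seeing the data. Cells with at least 2000 UMIs were thinned to 2000 UMIs, and cells below that were left out of all thinned shares, here and later. A low-depth macrophage-like cluster (60, 35, 30 and 58 cells) had a median of 1486 UMIs. After thinning, 15.1%, 14.8%, 14.5% and 20.4% of macrophage-like cells had a Hes1 UMI. The shares were 8.51%, 5.56%, 10.2% and 12.9% of erythroid-like cells, which serve as background. Unthinned, over all cells, they were 28.8%, 20.5%, 24.2% and 29.0% against 8.33%, 10.2%, 16.2% and 17.1%. Median depths were 7192, 5782, 8156 and 6440 UMIs in macrophage-like cells and 3928 to 6553 UMIs in erythroid-like cells. Both doxorubicin libraries were lowest in the thinned shares as in the CPM, but the thinned share of control lay within 1 percentage point of theirs. Hes1 was no longer past the limit with doublets kept, at a coarser clustering, with cells gated one by one, or with cells weighted equally. The summed stress genes were 10701, 8466, 7812 and 10692 CPM in the same cells. Summed stroma markers were 252, 166, 118 and 390 CPM and summed smooth muscle markers 129, 87.8, 62.3 and 293 CPM, also lowest in both doxorubicin libraries, and the part of these in the Hes1 values was not tested. Rbpj, the DNA-binding partner of Notch, was the 1 pathway gene of 22 counted there, at 494, 298, 231 and 512 CPM (log2 ratios -0.72 and -1.14).

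AMH: members past 1.5-fold in both contrasts numbered 0 of 4 in granulosa-like cells, where 1.35% of all genes did so, 0 of 4 in stroma-like cells (0.303%), 0 of 2 in smooth muscle-like cells (0.200%), 0 of 7 in pericyte-like cells (2.88%), 0 of 8 in blood endothelial-like cells (1.69%) and 0 of 3 in macrophage-like cells (2.27%). Theca-like cells had 2 of 3, Notch2 and Hes1, both higher, where 10.6% of all genes were counted, 4.08% as higher and 6.56% as lower. Notch2 was at 18.4 and 17.9 CPM in control and doxorubicin. It passed the filter only through both AMH libraries, where it was higher, so the share of all genes is no measure for its count.

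**Figure D2:**
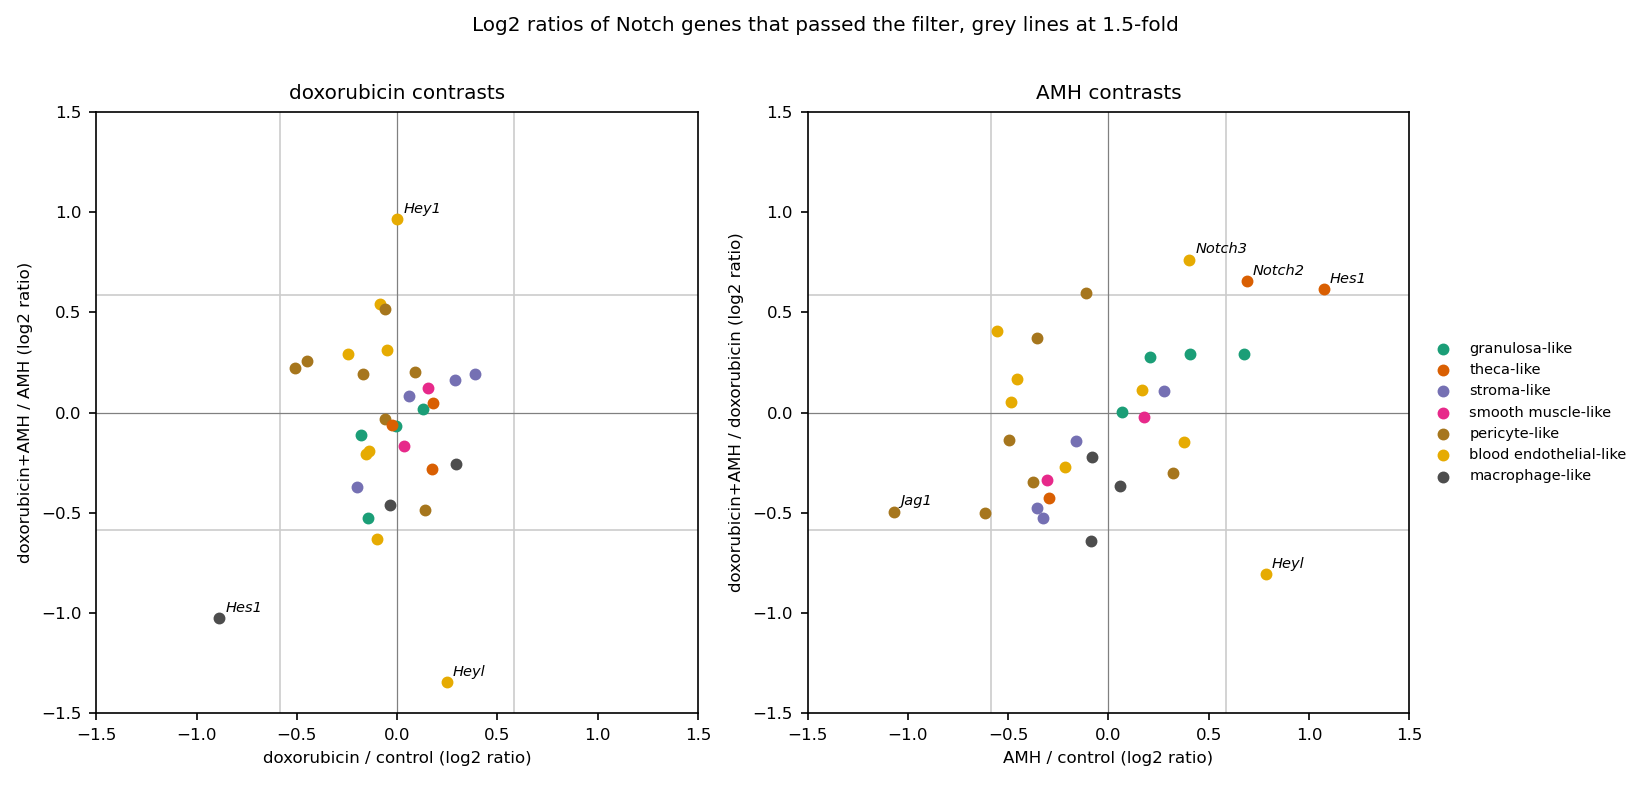
Log2 ratios of the Notch genes that passed the filter, 1 point per gene and class, for the doxorubicin pair (left) and the AMH pair (right), each axis being 1 contrast and grey lines marking 1.5-fold. Hes1 of macrophage-like cells lies in the lower left corner of the doxorubicin panel, and Hes1 and Notch2 of theca-like cells lie in the upper right corner of the AMH panel.

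Theca-like Hes1 was at 158 CPM (153 to 163), 179 CPM (173 to 185), 277 CPM (269 to 285) and 338 CPM (329 to 346), with log2 ratios of 1.07 (AMH / control) and 0.62 (doxorubicin+AMH / doxorubicin). Theca-like Notch2 was at 18.4, 17.9, 31.1 and 32.7 CPM, with log2 ratios of 0.69 and 0.65. Both AMH libraries lay above both others for each gene. Jag1, the only theca-like ligand past the filter, was lower, with log2 ratios of -0.30 and -0.43 that did not reach 1.5-fold. It passed the filter only through control and doxorubicin, where it was higher. With cells weighted equally, Jag1 passed that limit (-0.66 and -0.73) and Notch2 no longer did in the second contrast (0.74 and 0.58). Of 22 pathway genes tested, 3 were counted, where 10.6% of all genes were. Maml3, a co-activator that binds the Notch and RBPJ complex, was higher (82.9, 67.9, 121 and 147 CPM). Fbxw7, a ubiquitin ligase subunit that marks the Notch intracellular part for breakdown, was lower (107, 123, 56.0 and 50.9 CPM), as was Dtx4, of the Deltex ubiquitin ligases (135, 127, 69.8 and 71.4 CPM).

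The theca-like class was not made of the same cells in the 4 libraries. A cluster led by Lhcgr and Prss35 held 38, 37, 567 and 734 cells, and a cluster led by Cyp17a1 and Cyp11a1 held 672, 428, 51 and 53. Hes1 within the Lhcgr cluster was at 389, 328, 329 and 374 CPM, from 158, 174, 3563 and 4802 UMIs. Within the Cyp17a1/Cyp11a1 cluster it was at 155, 178, 188 and 188 CPM. The remaining theca-like cluster, led by Cyp17a1 and Lhcgr and held by all libraries (147, 137, 128 and 128 cells), had 152, 159, 160 and 268 CPM. Notch2 was at 37.0, 66.0, 34.0 and 35.5 CPM in the Lhcgr cluster, at 17.5, 16.0, 18 and 20 CPM in the Cyp17a1/Cyp11a1 cluster and at 21.6, 19.7, 26.6 and 27.9 CPM in the remaining one. Both AMH libraries were thus above both others for both genes in the last 2 clusters, and not in the Lhcgr cluster, while with cells weighted equally this held in 1 of the 2 for Hes1 and in 0 for Notch2. Without the 2 unevenly held clusters, no Notch gene and no pathway gene was past 1.5-fold in both AMH contrasts, and the Notch gene count was also 0 with cells gated one by one or with a mitochondrial limit of 10%. Median depth was 20462, 24177, 14040 and 12528 UMIs per theca-like cell, and the stress genes summed to 10717, 11718, 14969 and 15056 CPM. Summed theca markers were 17753, 17208, 7323 and 6462 CPM and summed stroma markers 409, 456, 986 and 933 CPM. What part these had in the values was not tested.

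In granulosa-like cells no Notch gene past the filter reached 1.5-fold in both AMH contrasts. All 4 had log2 ratios above 0 in both, as did 22.8% of all genes. The 2 AMH log2 ratios (AMH / control first) were 0.67 and 0.29 for Hes1, 0.40 and 0.29 for Heyl, 0.21 and 0.28 for Hey2, and 0.07 and 0.00 for Notch2. The median over these 4 genes was 0.31 and 0.28, that over all genes tested was -0.06 and -0.03, and scaling by median of ratios moved the first of these by 0.10. Hey1 was below the filter, at 3.95 CPM (3.48 to 4.47), 3.08 CPM (2.66 to 3.56), 8.80 CPM (8.08 to 9.57) and 10.4 CPM (9.72 to 11.2). Its log2 ratios were 0.79 and 0.77, past 1.5-fold in both contrasts if no filter is set. The Hey1 sums held 258, 185, 551 and 795 UMIs.

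A Hey1 UMI was found in 7.89%, 7.23%, 15.5% and 16.0% of granulosa-like cells, at median depths of 22464, 22911, 20870 and 16157 UMIs. Thinned to 2000 UMIs, the shares were 0.622%, 0.484%, 1.44% and 1.83%. In erythroid-like cells, taken as background, the thinned counts were 0 of 47, 1 of 54, 0 of 59 and 0 of 31 cells (unthinned 0% to 1.69%), too few to set a limit below the granulosa shares. The stress genes summed to 6734, 6840, 6974 and 6616 CPM in granulosa-like cells, and these sums do not separate the libraries by AMH. The summed granulosa markers were 5338, 5295, 7129 and 5960 CPM and the summed luteal markers 256, 289, 414 and 333 CPM, both higher in both AMH libraries, and their part in the target gene values was not tested.

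The order of libraries was also read in each granulosa-like cluster. In 7 clusters with at least 50 cells from every library, both AMH libraries were above both others in 6 for Hes1, in 6 for Hey1, in 6 for Heyl and in 4 for Hey2, but in 1 for Notch2. In 1 cluster both were below both others for Hey2. Among the 7 were low-depth clusters, led by Spef2 and Unc5c (median 3100 UMIs) and by Hsd17b1 and Inha (median 3537 UMIs). With doublets kept, a cluster led by Spef2 and Unc5c was left unnamed. The Hsd17b1 and Inha cluster held only 71, 149, 103 and 176 cells. Its summed stress genes were 1639, 3782, 2300 and 6964 CPM, and their part in its values was not tested. Of 10647 genes whose granulosa mean was 5 CPM or more, 1.43% were above in at least 6 of the 7. Hey1 reached that mean only through the AMH libraries, so this share is no measure for its count. Clusters share the same 4 libraries and are not replicates. With cells weighted equally, the counts were 6, 6, 5 and 5 for Hes1, Hey1, Heyl and Hey2, and Notch2 had 3. With median-of-ratios scaling they were 6 for each of the 4 targets, and Notch2 had 2. That scaling moved the median AMH log2 ratios of all genes tested up by 0.10 and 0.08. The 1.43% was computed on CPM and for at least 6 clusters. No share of all genes therefore stands beside the counts under other settings or the 4 for Hey2.

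The granulosa-like cluster led by Cntn4, Slc18a2 and Cdh12, with Amh among its leading genes, had the highest Hey1 and Heyl. Hey1 there was at 8.19, 4.79, 21.2 and 30.6 CPM from 99, 52, 95 and 183 UMIs, and Heyl at 38.7, 36.1, 69.4 and 69.0 CPM. Hes1 in that cluster was at 292, 227, 217 and 305 CPM, the 1 cluster of the 7 in which Hes1 did not separate by AMH. In the cluster led by Inhba and Hsd17b1, Hey2 was at 52.9, 48.7, 56.8 and 60.4 CPM, its highest, while Heyl was at 7.99, 9.31, 15.8 and 11.7 CPM, its lowest. Hey1 and Heyl were thus highest in 1 granulosa-like cluster and Hey2 in another. A further granulosa-like cluster, led by Amh and Wfdc10, came almost wholly from doxorubicin (1, 79, 1 and 2 cells) and was in no such comparison.

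**Figure D3:**
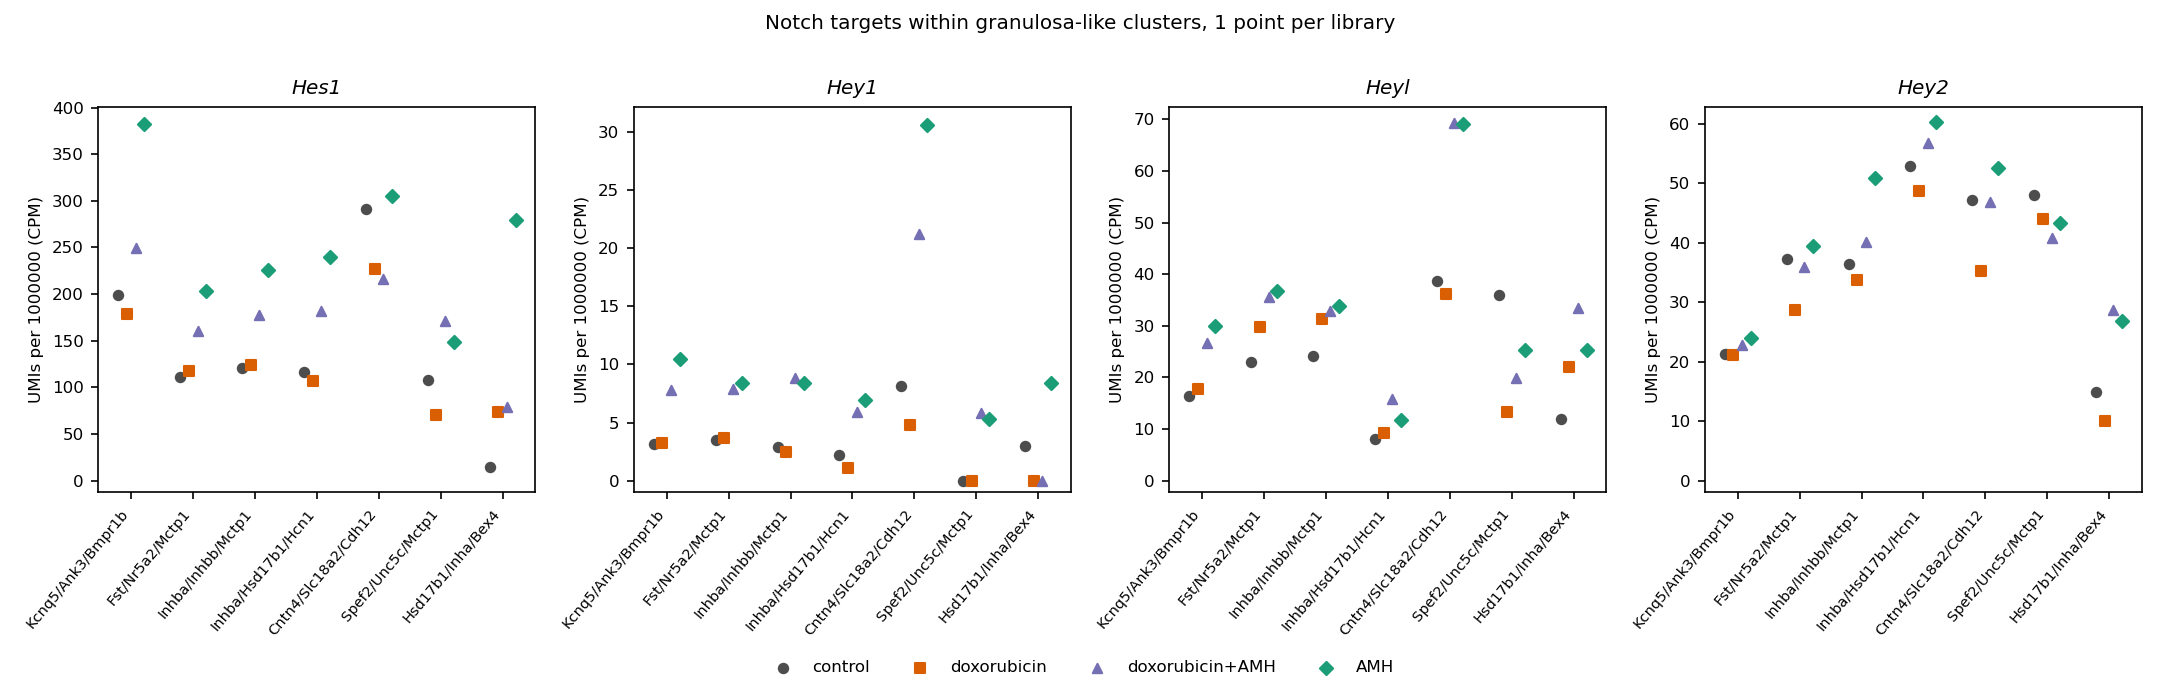
Levels of Hes1, Hey1, Heyl and Hey2 (vertical axes, UMIs per 1000000) in the 7 granulosa-like clusters with at least 50 cells per library, named by their 3 leading genes, with 1 point per library and no error bars. Both AMH libraries lie above both others in 6 clusters each for Hes1, Hey1 and Heyl.

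In stroma-like cells no Notch gene passed 1.5-fold in both AMH contrasts. Of the 4 tested, 3 had negative log2 ratios in both, as did 49.8% of all genes. Of these 3, Notch1 (21.5, 29.7, 19.1 and 16.1 CPM) passed the filter only through control and doxorubicin, where it was higher. Its sign and its part in the median below are therefore no measure against all genes. The 2 AMH log2 ratios (AMH / control first) were -0.35 and -0.48 for Heyl, -0.33 and -0.52 for Notch1, and -0.43 and -0.30 for Notch3, which was below the filter at 19.1, 21.0, 16.2 and 12.9 CPM. They were -0.16 and -0.14 for Notch2 and 0.28 and 0.11 for Hes1. The median over the 4 genes tested was -0.24 and -0.31, against -0.08 and -0.03 over all genes. With cells weighted equally, Heyl passed 1.5-fold in both contrasts. Within 5 stroma-like clusters, both AMH libraries were below both others in 4 for Heyl and in 4 for Notch3 (3 and 3 with median-of-ratios scaling), but in 0 for Hes1, where 8.04% of 11071 genes whose stroma mean was 5 CPM or more were below in at least 4. Summed pericyte markers were also lower in both AMH libraries (84.4, 72.5, 59.4 and 50.2 CPM). So were the summed theca markers (314, 257, 231 and 236 CPM), luteal markers (108, 102, 72.6 and 73.9 CPM) and stress genes (17834, 17365, 17127 and 16396 CPM). Summed granulosa markers (376, 413, 558 and 586 CPM) and smooth muscle markers (779, 697, 1126 and 1032 CPM) were higher there. The part of all these sums in the Notch gene values was not tested.

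A stroma-like cluster led by Dpt and Clec3b (305, 204, 137 and 265 cells) stood apart in the doxorubicin library, and was singled out after its values were seen. Notch1 was at 24.9, 61.9, 27.6 and 22.6 CPM from 93, 200, 42 and 68 UMIs, and Notch3 at 8.84, 31.9, 8.54 and 6.64 CPM from 33, 103, 13 and 20 UMIs. Both receptors were high in the doxorubicin library alone, and doxorubicin+AMH lay with control and AMH. Hes1 in the same cluster was at 220, 104, 190 and 297 CPM, lowest in the doxorubicin library. The log2 ratios for doxorubicin / control were 1.16 for Notch1, 1.41 for Notch3 and -1.04 for Hes1. In doxorubicin+AMH / AMH, Hes1 was also lower past 1.5-fold (190 against 297 CPM), while both receptors were within 1.5-fold. With cells weighted equally, this second Hes1 ratio was within 1.5-fold. The share of all genes past 1.5-fold was not computed for this cluster.

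A Notch1 UMI was found in 23.0%, 46.6%, 24.1% and 20% of the cells of that Dpt cluster and a Notch3 UMI in 8.85%, 35.3%, 6.57% and 6.42%, at median depths of 11809, 15195, 10745 and 10753 UMIs. Thinned to 2000 UMIs, the shares were 5.92%, 8.91%, 2.94% and 5.32% for Notch1 and 0.987%, 4.95%, 2.21% and 1.14% for Notch3, highest in the doxorubicin library for both, although its exact 95% binomial intervals (5.37% to 13.7% and 2.40% to 8.92%) overlapped those of control (3.55% to 9.20% and 0.204% to 2.86%). In erythroid-like cells, taken as background at depths of 3928 to 6553 UMIs, the thinned counts were 0 of 47, 0 of 54, 0 of 59 and 0 of 31 cells for Notch1 and 1, 0, 0 and 0 of these for Notch3 (unthinned at most 1.67% and 2.44%). A Hes1 UMI was found in 58.4%, 41.7%, 59.1% and 67.5% of the Dpt cluster cells, and in 24.7%, 13.4%, 20.6% and 35.0% after thinning, lowest in the doxorubicin library. Without the cell with the most UMIs of the gene, the log2 ratios were 1.18 for Notch1, 1.45 for Notch3 and -1.18 for Hes1. Markers of blood endothelial cells summed to 82.8, 34.7, 69.6 and 61.8 CPM in that cluster and pericyte markers to 60.8, 26.6, 66.3 and 43.5 CPM, both lowest in the doxorubicin library, and their part in the Notch1 and Notch3 values was not tested. The stress genes summed to 17086, 14469, 17311 and 17598 CPM. With 1 library per group, a difference held by 1 library cannot be told apart from a difference between treatments. The doxorubicin library also differed in its cells, with 139, 1, 44 and 240 oviduct epithelial-like cells, 203, 21, 56 and 185 cells in a smooth muscle-like cluster led by Des and Actg2, and 0, 179, 0 and 3 cells in an unnamed cluster led by B230209E15Rik.

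**Figure D4:**
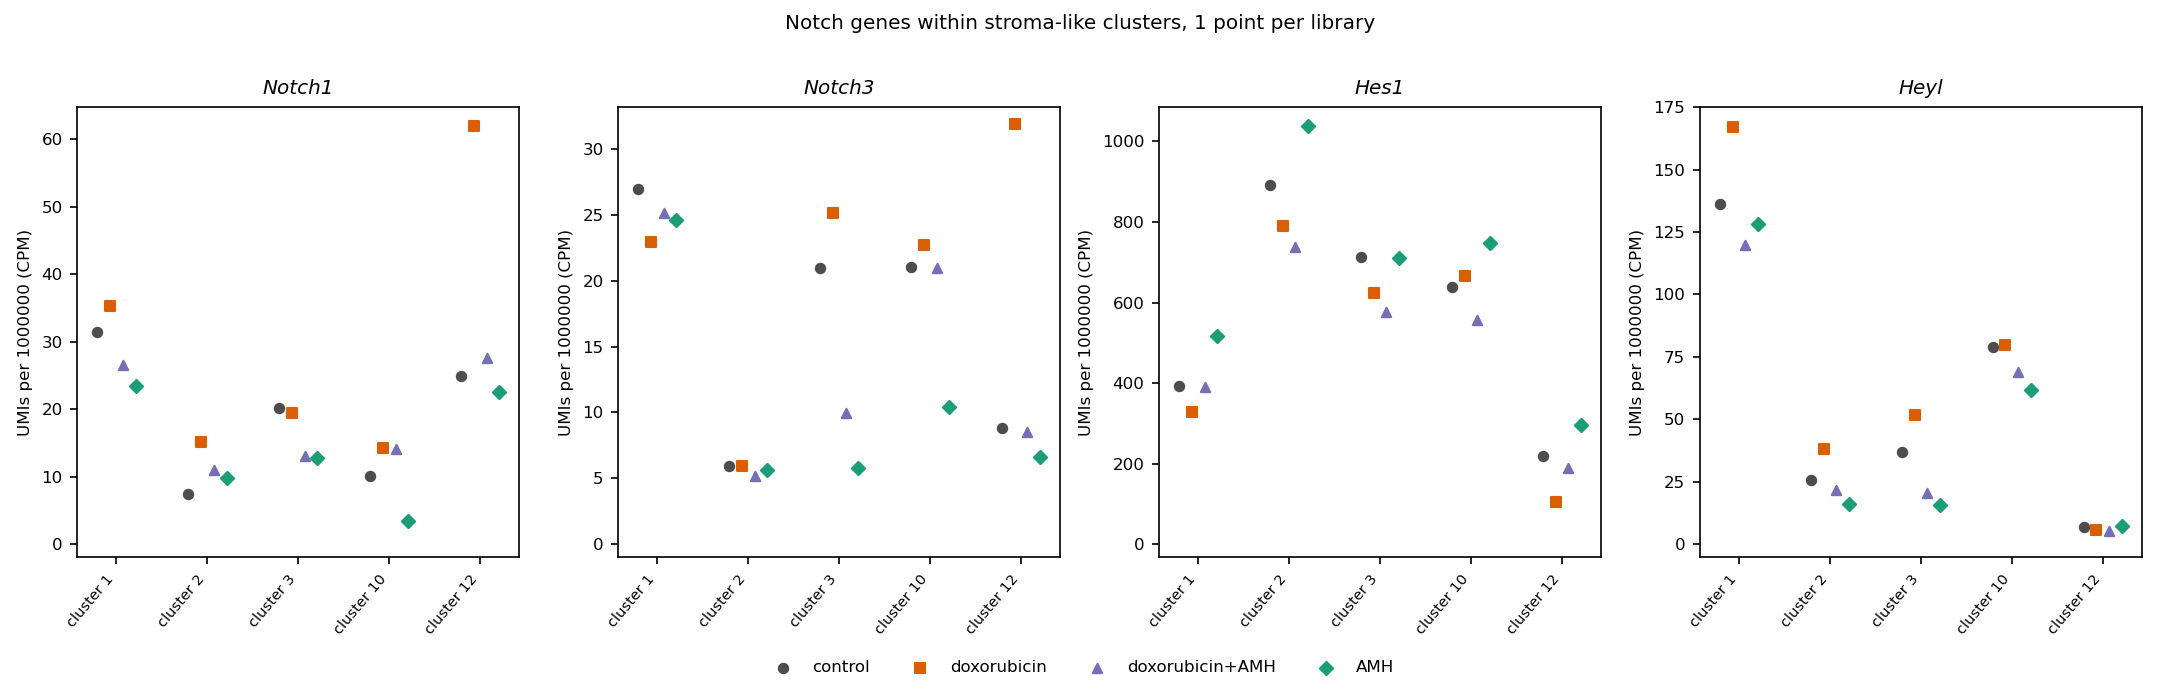
Levels of Notch1, Notch3, Hes1 and Heyl (vertical axes, UMIs per 1000000) in the 5 stroma-like clusters, given by cluster number, with 1 point per library and no error bars. In cluster 12, led by Dpt and Clec3b, the doxorubicin library is the highest for Notch1 and Notch3 and the lowest for Hes1.

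In pericyte-like and blood endothelial-like cells no Notch gene was counted in either pair, and single contrasts are given here. Jag1 of pericyte-like cells had a log2 ratio of -1.07 (-1.57 to -0.56) against control in the AMH library, and of -0.49 (-0.99 to 0.00) against doxorubicin in the doxorubicin+AMH library. Notch3 had -0.50 and -0.14, and Hey2 -0.61 and -0.50. Of these only Jag1 and Hey2 in AMH / control were past 1.5-fold, and with doublets kept Hey2 turned to 0.027. The pericyte, smooth muscle, granulosa and stress sums given with Notch3 moved in the same cells, and their part was not tested. Heyl of pericyte-like cells had -0.11 and 0.60, the second falling to 0.13 with doublets kept and 0.12 with cells weighted equally. Notch3 of blood endothelial-like cells, a receptor that mural cells express more highly, had 0.40 and 0.76, the second falling to 0.043 with doublets kept. In the other pair, doxorubicin+AMH / AMH was past 1.5-fold for 3 targets of blood endothelial-like cells while doxorubicin / control was not. It was -1.34 (-2.0 to -0.69) for Heyl, 0.97 (0.50 to 1.43) for Hey1 and -0.63 (-0.84 to -0.42) for Hes1, whose levels were 250, 233, 210 and 327 CPM. With doublets kept these were 0.33, 0.55 and -0.36, and with cells weighted equally -0.24, 0.31 and -0.50, all within 1.5-fold. Heyl, at 16.8, 20.9, 9.79 and 32.6 CPM, would be below the filter of 20 CPM without the AMH library, the denominator of its ratio. In blood endothelial-like cells the summed stroma markers were 157, 146, 156 and 693 CPM, pericyte markers 430, 539, 613 and 689 CPM and granulosa markers 163, 173, 304 and 312 CPM. Summed smooth muscle markers were 235, 165, 474 and 397 CPM and stress genes 8843, 8651, 10193 and 10923 CPM. Summed macrophage markers were 34.2, 25.5, 30.4 and 243 CPM and erythroid markers 16.2, 15.5, 18.6 and 369 CPM. The part of all these sums in the blood endothelial-like ratios was not tested. Among 24 pathway genes of pericyte-like cells, 1 was counted, Dtx4, which was higher in both AMH contrasts (37.6, 43.0, 73.7 and 58.9 CPM, where 0.98% of all genes were higher). This count was 0 with at least 3000 UMIs per cell, with doublets kept or at a coarser clustering. No pathway gene was counted in either pair in granulosa-like, stroma-like, smooth muscle-like or blood endothelial-like cells, where 21 to 24 of the 45 were tested.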

How the data were processed

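The authors deposited UMI counts per gene and cell, whole numbers without normalization. The file headers name Cell Ranger 7.0.0. The submitters' processing notes name mm10, R 4.2.0 and Seurat 4.1.0. Ovaries were dissociated with enzymes and run on a 10x Genomics 3′ kit, per the labels' protocols. Cells were kept from 1000 UMIs upward and up to a mitochondrial share of 20%. The highest Scrublet scores were removed at 0.8% per 1000 cells (366 to 648 cells per library), since the automatic threshold marked 0. Libraries were clustered jointly (scanpy 1.11.5, 2000 variable genes without the gene lists used here, 30 components, 20 neighbours, Leiden resolution 1). A cluster was named where at least 3 markers and 60% of a class's list exceeded the median cluster by 1 log2 unit and were detected in 10% or more of its cells, with at least 1 of them among its top 10 genes and no second such class with 2 or more. The last 2 conditions were set after the clusters were seen. UMIs were summed per class and library. Ratio intervals cover counting error only, and a level of 0 allows up to 3 counts. The ratios were tested on simulated data. Members and lists were chosen with earlier results of these data known. All 10 members, pathway genes past 1.5-fold in both contrasts, 10 listed pathway genes with their highest class, and the genes most like each member were named by rule, and some of these are not reported here. The replicate number, 1 in each group, pairs nothing.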

Additional observations from a re-analysis of the deposited data

Results flagged for a closer look

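Heyl in blood endothelial-like cells differed in opposite directions between the AMH contrasts, past 1.5-fold in each. Its levels were 16.8, 20.9, 9.79 and 32.6 CPM (control, doxorubicin, doxorubicin+AMH, AMH) from 59, 54, 10 and 81 UMIs. Without the AMH library, where it was highest, its mean would lie below the filter of 20 CPM. The log2 ratio was 0.78 (interval 0.39 to 1.18) for AMH / control and -0.81 (-1.48 to -0.14) for doxorubicin+AMH / doxorubicin. With doublets kept, the first turned to -0.089, and with cells weighted equally the second turned to 0.29. In the same cells, summed stroma markers were 157, 146, 156 and 693 CPM and summed pericyte markers 430, 539, 613 and 689 CPM. Summed macrophage and erythroid markers were also highest in the AMH library. The part of these sums in the Heyl values was not tested. The difference between the contrasts was not tested, since each group has 1 library.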

How the results depend on the processing

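Each Notch gene had its highest median in the same of the 7 classes under every alternative that gave a value for that class. Clustering each library alone and gating single cells by their own markers gave no value for pericyte-like cells. Counts of Notch genes past 1.5-fold in both AMH contrasts became 1 in blood endothelial-like cells (Notch3, higher) and 1 in smooth muscle-like cells (Notch3, lower) with gated cells. They became 1 in pericyte-like cells (Hey2, lower) and 1 in stroma-like cells (Heyl, lower) with cells weighted equally, and 1 in granulosa-like cells (Hey1, higher) with no filter. In theca-like cells they were 0 with a mitochondrial limit of 10%, with gated cells and without unevenly held clusters, an alternative chosen after seeing the data that also gave 0 pathway genes there and 1 Notch gene (Heyl, lower) for doxorubicin. With equal weights the theca-like count was 2 from Hes1 (higher) and Jag1 (lower) without Notch2, and with no filter Heyl (higher) was added. The doxorubicin count of macrophage-like cells was 0 with doublets kept, at resolution 0.5, with gated cells, with equal weights and, chosen after seeing the data, without the AMH cell with the most Hes1 UMIs, and 2 (Jag2 and Hes1) with no filter. Its pathway count was 2 at resolution 0.5 (Rbpj and Maml3) and with no filter (Rbpj and Mfng), and 0 with libraries clustered alone or cells gated. The pathway count for AMH in pericyte-like cells was 0 with at least 3000 UMIs, with doublets kept and at resolution 0.5. It was 2 in blood endothelial-like cells with equal weights (Mfng and Numb, lower), and with no filter 1 in smooth muscle-like cells for doxorubicin (Cntn1, lower). With doublets kept, the log2 ratios of Heyl in blood endothelial-like cells turned to 0.33 (doxorubicin+AMH / AMH) and -0.089 (AMH / control), and Hey2 in pericyte-like cells to 0.027 (AMH / control). With equal weights, Heyl in blood endothelial-like cells turned to 0.29 (doxorubicin+AMH / doxorubicin). The cause of these moves was not tested. Clusters are not replicates, and pericyte, endothelial and macrophage values rest on few cells. No paired analysis was possible because each group has 1 library.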
